A study of Ambystoma mexicanum with 12 samples.

Results

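The HOX genes made up 37 of the 15091 genes in a table of transcript levels from the spinal cord of the axolotl (Ambystoma mexicanum), a salamander that repairs its spinal cord after injury. They were taken as every row whose symbol is HOX followed by a cluster letter, A to D, and a paralog number, which gave 11 genes of cluster A, 9 of cluster B, 9 of cluster C and 8 of cluster D. The symbols are human ones that the authors' table gives to axolotl transcripts, and 36 of the 37 are also gene symbols in the RefSeq annotation of the axolotl assembly UKY_AmexF1_1 (HOXC6 is not). HOXB1 is named in that annotation and was not analysed here.

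HOX genes encode homeodomain transcription factors that give cells their position along the axis from head to tail. They lie in clusters in which the order of the genes follows the order of their expression along the body: genes with low paralog numbers begin to be expressed in the hindbrain, those in the middle of a cluster in the cord of the neck and trunk, and those with the highest numbers only towards the tail. In the spinal cord they set which motor neurons form at which level, and their pattern is kept in adult tissue by the Polycomb and Trithorax chromatin complexes. HOX genes are also transcribed in the muscle, cartilage and skin of the same body level, so a level in bulk tissue sums over all of these.

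Libraries were made from 4 groups of axolotl spinal cord with 3 libraries in each. Uninjured cords of animals given a control inhibitor (uninjured control, libraries 1, 5 and S2) were set against cords taken at 4 days post-injury (dpi) from animals given the same control inhibitor (4 dpi control, libraries 1, 5 and 6). The other groups received an antisense inhibitor of the microRNA miR-200a and were either uninjured (uninjured inhibitor, libraries 5, 6 and 7) or taken at 4 dpi (4 dpi inhibitor, libraries 5, 6 and 7). The injury was the surgical removal of a piece of cord, which the study's methods place in the tail, caudal to the cloaca. By the labels the animals were 2 to 3 cm long, the inhibitors were injected into the central canal, and each RNA sample pooled the tissue of 10 animals. The study's methods give larger animals and electroporation of the inhibitors, so both facts are uncertain. Library S2 carries no replicate number in its title. No source says that the pools of a group came from separate days or clutches, so the p-values measure the spread between these pools.

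Values are TPM, an abundance scaled for transcript length whose sum is the same in every library. TPM keeps no read depth, so the precision of low values is unknown. The tissue label was checked against marker genes. SOX2, the transcription factor of neural stem cells, lay at 17.9 to 232 TPM and GFAP, the glial filament protein of the cord's stem cells, at 85.7 to 2335 TPM in the 12 libraries. Of the brain genes, OTX2 (midbrain and forebrain) was listed at 0 in 11 libraries and at 6.85 TPM in 4 dpi control library 1. Skeletal muscle genes were abundant: the summed level of 14 of them was 4097 to 46682 TPM, against 162 to 2880 TPM for 12 spinal cord genes. The part of muscle in the HOX values was not tested. In bulk tissue fewer cells of a type and less RNA per cell cannot be told apart.

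All 37 HOX genes were measured above 0 in at least 1 library, and 36 of them averaged at least 1 TPM over the 12 libraries. HOXA6 was the exception. It was listed at 5.54, 0 and 1.5 TPM in uninjured control libraries 1, 5 and S2 and at 0 in the other 9 libraries, and it was the only HOX gene below the filter for testing (0.5 TPM in at least 3 libraries), which 14764 of all genes passed. The levels of neighbouring HOX genes may share reads. In the axolotl annotation 13 of the genes, in clusters A, B and D, have a gene model that overlaps that of another member, among them HOXA9 and HOXA10, whose joint row HOXA10-HOXA9 (7.13 to 46.5 TPM) was not counted as a member. Which transcript models lie behind the deposited values is not stated in the paper or labels.

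The highest levels were those of genes with high paralog numbers. HOXB9, HOXC12, HOXC13 and HOXB8 had the highest means over the 12 libraries, at 114, 106, 91.6 and 68.6 TPM. HOXC8 followed at 40.5 TPM and HOXB3, the highest gene of the low paralog numbers, at 29.6 TPM. Genes of paralog groups 9 to 13 held 58.7 to 70.5% of all HOX TPM in every library, those of groups 4 to 8 held 22.8 to 29.4%, and those of groups 1 to 3 held 6.45 to 12.2%. Clusters B and C held most of the signal, with 30.5 to 46.3% and 35.9 to 53.4% of HOX TPM, while cluster D held 5.32 to 7.41%. Within cluster B the neighbours HOXB8 and HOXB9 stood far above HOXB5 to HOXB7, and in cluster C the peak lay at the end of the cluster, at HOXC12 and HOXC13.

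**Figure D1:**
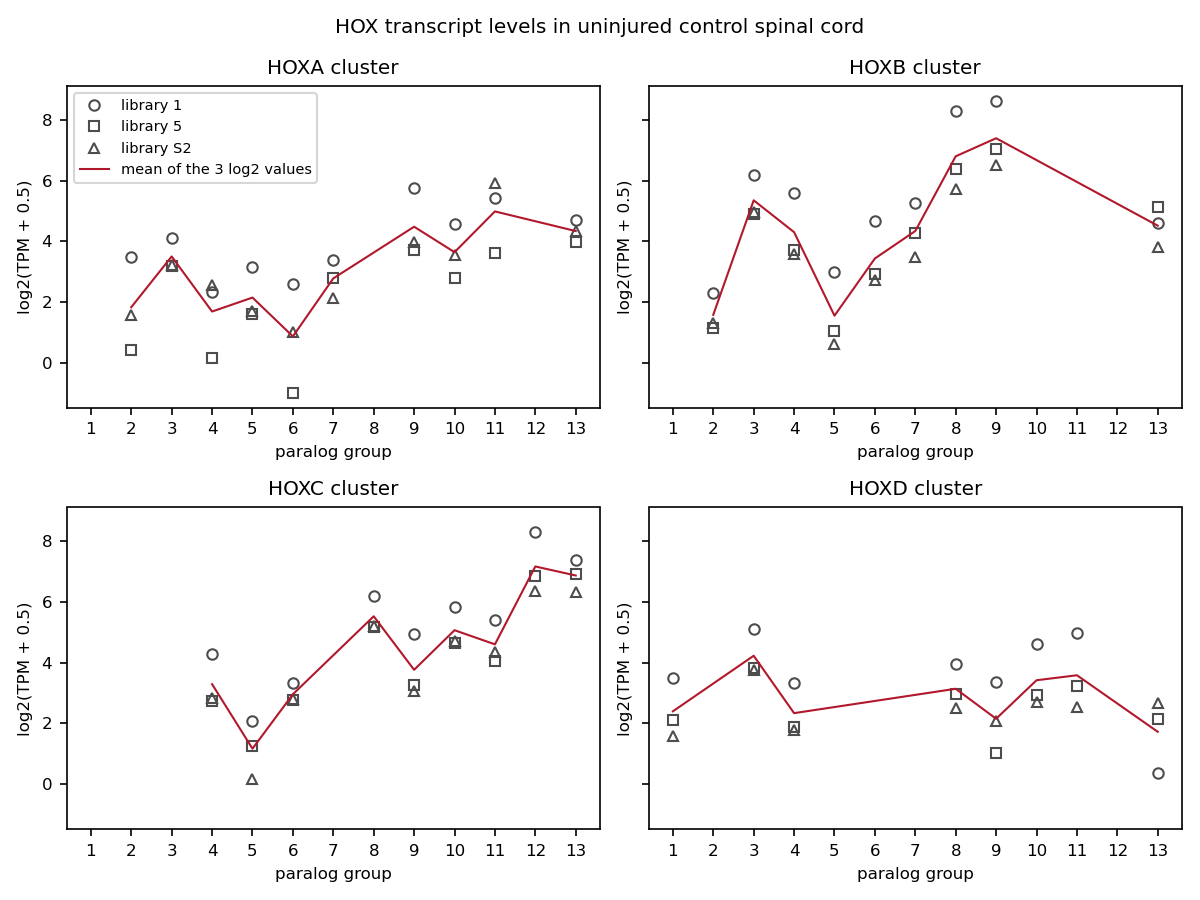
Level of the HOX genes described here in the 3 uninjured control libraries, as log2(TPM + 0.5) against paralog group, 1 panel per cluster, with a line through the mean of the log2 values that also bridges paralog groups the cluster lacks. HOXB8 and HOXB9 stand highest in cluster B and HOXC12 and HOXC13 in cluster C, and library 1 lies highest for most genes.

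The HOX13 genes, which mark the tail end of the axis, were expressed in all libraries. HOXC13 was listed at 166, 120.3 and 80.2 TPM in uninjured control libraries 1, 5 and S2. HOXB13 was listed at 23.6, 34.7 and 13.6 TPM in the same libraries, and HOXA13 at 25.3, 15.4 and 19.6 TPM. HOXD13, which is best known from the digits and the hindgut, was the lowest of these genes, with 0.78, 3.90 and 5.91 TPM. HOXC12, the only gene of its paralog group in the table, was listed at 320.5, 115 and 81.2 TPM. HOXC13 and HOXC12 thus overlapped in level, and both lay above HOXA13, HOXB13 and HOXD13 in each of the 3 libraries.

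Genes of the head end of the clusters were present in the same tissue, HOXA2 and HOXB2 at low levels and HOXB3 at a higher level. HOXA2, which patterns the hindbrain in mouse, was listed at 10.6, 0.85 and 2.47 TPM in uninjured control libraries 1, 5 and S2, and HOXB2 at 4.36, 1.72 and 1.96 TPM. HOXB3 was listed at 72.2, 29.2 and 30.9 TPM. Library 1 held the highest value of each of these 3 genes, and libraries 5 and S2 lay close together for HOXB2 and HOXB3 but not for HOXA2.

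Between these ends the levels did not run in the order of the paralog groups. HOXB6, the highest gene of its paralog group, was listed at 25.1, 7.03 and 6.05 TPM in uninjured control libraries 1, 5 and S2, at 11.7, 2.90 and 4.64 TPM in 4 dpi control, at 3.02, 6.89 and 2.90 TPM in uninjured inhibitor and at 11.4, 5.33 and 4.64 TPM in 4 dpi inhibitor. HOXB7 was listed at 37.9, 18.7 and 10.7 TPM, 15.9, 11.2 and 19.2 TPM, 10.5, 13 and 20.1 TPM and 10.4, 8.91 and 8.53 TPM in the same order of groups. The 4 dpi inhibitor libraries were the lowest for HOXB7 but not for HOXB6. HOXC10, a gene of the lumbar cord in mouse, was listed at 56.6, 24.7 and 26.0 TPM, 29.2, 18.9 and 25.9 TPM, 20.6, 18.5 and 24.4 TPM and 19.2, 17.2 and 15 TPM, and every library of both inhibitor groups lay below every uninjured control library.

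Uninjured control library 1 held the highest level of its group for 33 of the 37 HOX genes, against 62.2% of all genes tested. Summed HOX TPM was 2008 in library 1, 773 in library 5 and 668 in library S2. The summed level of 12 neuronal genes ran the same way (14595, 4930 and 2573 TPM), as did that of the 12 spinal cord genes (2880, 1188 and 602 TPM), whereas the 14 muscle genes ran the other way (11423, 31821 and 46682 TPM). The part of these tissues in the HOX levels was not tested. The exceptions to library 1 were HOXB13, which was highest in library 5, and HOXA4, HOXA11 and HOXD13, which were highest in library S2. HOXA11 was listed at 42.8, 11.7 and 59.5 TPM in libraries 1, 5 and S2. Library S2 had the largest share of any library for cluster A (20.8% of HOX TPM, against 6.30 to 11% in the other 11). It also had the largest share for paralog group 11 (12.7%, against 4.76 to 7.89%). HOXA11 belongs to both sets, but other genes of cluster A contribute to the first share too. Because of this spread, most differences from the uninjured control group carry a large error.

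The axial profile was summarised as the mean paralog number of each library, weighted by TPM, which does not depend on how a library is scaled. It was 8.98, 9.54 and 9.28 in uninjured control libraries 1, 5 and S2 and 9.53, 9.74 and 9.80 in 4 dpi control libraries 1, 5 and 6. In the uninjured inhibitor libraries 5, 6 and 7 it was 9.55, 9.11 and 9.51, and in the 4 dpi inhibitor libraries 5, 6 and 7 it was 8.74, 9.13 and 9.13. Group means were 9.26 ± 0.28 (SD, n = 3 libraries) in uninjured control, 9.69 ± 0.15 in 4 dpi control, 9.39 ± 0.24 in uninjured inhibitor and 9.0 ± 0.23 in 4 dpi inhibitor. The 4 dpi control libraries lay above all 4 dpi inhibitor libraries, while the uninjured groups overlapped each other. The summary was made over members chosen with earlier results known, so no test is attached to it. With weights of log2(TPM + 1), which give low genes more say, the group means were 7.90, 8.18, 8.37 and 7.94 in the same order, and the order of the groups was no longer the same.

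The shares that set 4 dpi inhibitor apart were those of paralog groups 4, 5, 8 and 9. Paralog groups 4 and 5 held 14.6, 8.47 and 10.8% of HOX TPM in 4 dpi inhibitor libraries 5, 6 and 7. They held 3.72 to 5.03% in uninjured control, 2.38 to 4.53% in 4 dpi control, and 1.2, 7.52 and 1.2% in uninjured inhibitor libraries 5, 6 and 7. All 4 dpi inhibitor libraries thus lay above the other 9, the nearest of which was uninjured inhibitor library 6. Paralog group 9 ran the other way, with 12.4 to 14.1% in 4 dpi inhibitor against 15.2 to 24.4% in the other 9 libraries. Paralog group 8 held 8.51 to 14.1% there and 14.1 to 22.7% elsewhere, ranges that adjoin. Paralog groups 12 and 13 did not part in this way, at 14.9 to 16.1% and 19.0 to 22.3% in 4 dpi inhibitor against 11.3 to 17.6% and 10.7 to 24.1% elsewhere. The grouping of paralogs 4 and 5 was chosen after the values were seen, and these shares are given as a description. A share also depends on total HOX TPM, which averaged 429.8 in 4 dpi inhibitor and 1149.6 in uninjured control. The summed TPM of paralog groups 4 and 5 averaged 49.8 ± 21.1 (SD) in 4 dpi inhibitor and 53.5 ± 41.1 in uninjured control. It averaged 28.3 ± 16.1 in 4 dpi control and 16.1 ± 19.0 in uninjured inhibitor. The 4 dpi inhibitor range of this sum, 32.3 to 73.1 TPM, overlapped that of each other group.

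**Figure D2:**
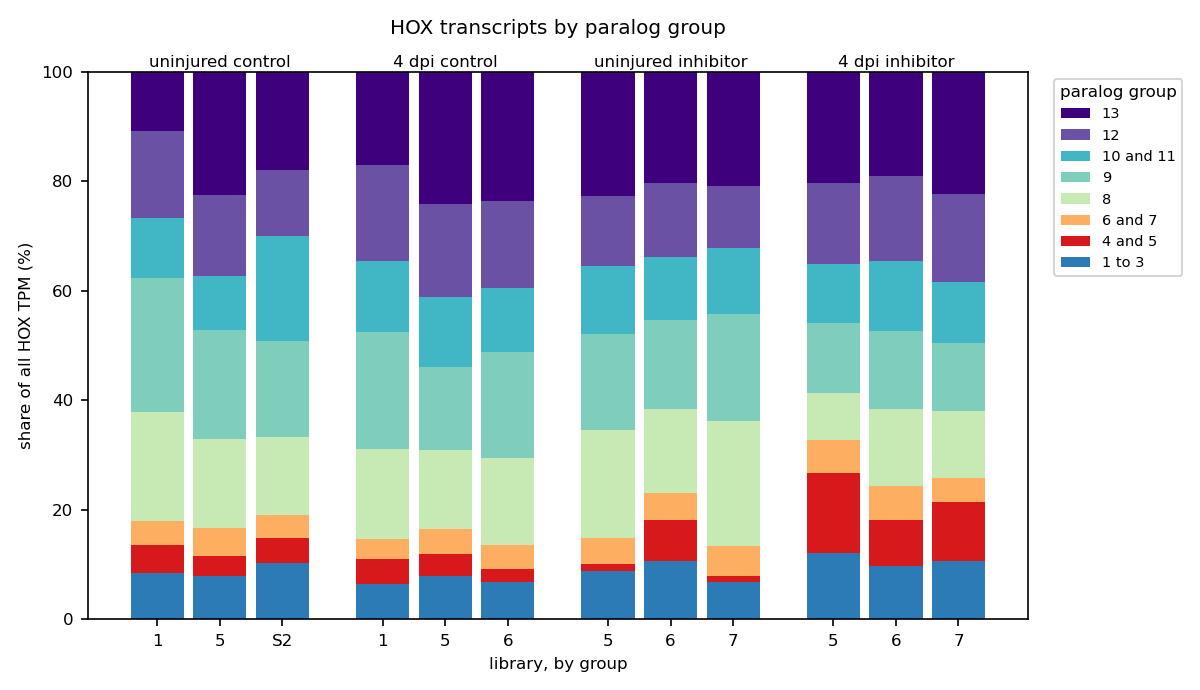
Share of all HOX TPM held by each band of paralog groups (percent, stacked) in each of the 12 libraries. The band of paralog groups 4 and 5 takes 8.47 to 14.6% in the 4 dpi inhibitor libraries and at most 7.52% in the other 9, while paralog groups 9 to 13 hold 58.7 to 70.5% of every bar.

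The first comparison asked how injury alone changed the HOX genes (4 dpi control against uninjured control). No HOX gene passed the test, which was limma on log2(TPM + 0.5) in all 12 libraries and asked for an adjusted p below 0.05 with a log2 fold change beyond 1 in size. Over all genes 0.874% were called higher and 0.061% lower. At an unadjusted p under 0.05, 3 HOX genes were lower (HOXA5, HOXA9 and HOXD3) and none was higher, beside 3.27% lower and 7.24% higher over all genes. Fitted values were negative for 33 of the 36 tested genes and for 56.5% of all genes. The median log2 fold change was -0.59 over HOX genes and -0.09 over all genes. The sum of HOX TPM was 1032, 499 and 747 in 4 dpi control against 2008, 773 and 668 in uninjured control, which overlap. The HOX median rested in part on single libraries: it was -0.15 without uninjured control library 1, -0.19 without uninjured control libraries 1 and S2, -0.37 without 4 dpi control library 5 and -0.90 without 4 dpi control library 1. A fit that took equal replicate numbers as blocks called 3 HOX genes lower (HOXA5, HOXA7 and HOXB8). Whether these numbers pair the libraries is not known, and the share of all genes called in that fit is not given here. The sum of 12 leukocyte genes was 1667 to 2214 TPM in 4 dpi control against 363 to 1064 TPM in uninjured control, without overlap. The sums of the spinal cord genes (396 to 1109 against 602 to 2880 TPM), neuronal genes (2824 to 6021 against 2573 to 14595 TPM) and muscle genes (10547 to 20464 against 11423 to 46682 TPM) overlapped. Their part in the HOX differences was not tested.

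In 5 HOX genes every 4 dpi control library lay below every uninjured control library, which was 13.9% of the 36 against 1.98% of all genes. They were HOXA5, HOXA7, HOXA13, HOXB2 and HOXD3. HOXA5, which in mouse acts with HOXC5 in the motor neurons of the diaphragm, was listed at 8.30, 2.52 and 2.76 TPM in uninjured control libraries 1, 5 and S2 and at 1.02, 0.96 and 1.0 TPM in 4 dpi control libraries 1, 5 and 6. Its log2 fold change was -1.56 (SE 0.51), with an adjusted p of 0.252 in limma. HOXA7, a gene of the trunk, was listed at 10, 6.47 and 3.88 TPM before injury and at 2.84, 3.13 and 3.19 TPM after it (log2 fold change -0.95, SE 0.45, limma adjusted p = 0.482). HOXA13 was listed at 13.3, 11.8 and 14.9 TPM at 4 dpi, below the lowest uninjured value of 15.4 TPM. The 2 highest genes of the tail end overlapped: HOXC13 was listed at 140.4, 90.1 and 136 TPM at 4 dpi and HOXC12 at 182, 85.4 and 119 TPM, and both ranges lay within those of the uninjured libraries.

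The second comparison asked what the miR-200a inhibitor changed without injury. Of the 36 HOX genes, 18 (50%) were lower in uninjured inhibitor than in uninjured control and none was higher, where 42% of all genes were called lower and 3.32% higher. The HOX share was thus close to the background, and the median log2 fold change was -1.28 over HOX genes and -1.0 over all genes. At an unadjusted p under 0.05, 23 were lower and none was higher, beside 53.7% and 8.03% of all genes. Each library was then divided by its median ratio to a geometric mean library (median-of-ratios scaling), after which 5 HOX genes were lower (13.9%) and none was higher, against 13.2% and 15.1% of all genes, and the medians were -0.40 and -0.18. The groups did not overlap for 18 HOX genes, all lower (50% against 48.9% of all genes).

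The 5 genes that were lower under both scalings were HOXD1, HOXA5, HOXA7, HOXA9 and HOXD9. HOXD9, a gene of the lumbar cord in mouse, was listed at 9.79, 1.54 and 3.71 TPM in uninjured control libraries 1, 5 and S2 and at 0 in all 3 uninjured inhibitor libraries (limma adjusted p = 0.00292). HOXA9, its paralog in cluster A, was listed at 53.0, 12.6 and 15.4 TPM in these control libraries and at 1.38, 4.79 and 2.2 TPM in uninjured inhibitor libraries 5, 6 and 7. Its log2 fold change was -2.90 (SE 0.66, limma adjusted p = 0.00494), and -2.04 after scaling. Every inhibitor library lay below every control library for both genes. The joint row HOXA10-HOXA9 was listed at 46.5, 15.9 and 20.1 TPM in the same control libraries. In uninjured inhibitor libraries 5, 6 and 7 it was listed at 8.09, 8.12 and 11.6 TPM. Its fold change is not given here, and how reads were divided between it and HOXA9 is not stated. HOXB9, the highest HOX gene, was listed at 397, 132 and 90.2 TPM against 60.8, 70.9 and 89.3 TPM (log2 fold change -1.2, SE 0.47, limma adjusted p = 0.0474), and its groups nearly touched.

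HOXA7 was listed at 1.89, 1.34 and 0.57 TPM in uninjured inhibitor libraries 5, 6 and 7, below the control values of 10, 6.47 and 3.88 TPM (log2 fold change -2.03, SE 0.45, limma adjusted p = 0.00415). HOXA5 was listed at 0.20, 0.85 and 0.54 TPM, below 8.30, 2.52 and 2.76 TPM (log2 fold change -2.15, SE 0.51, limma adjusted p = 0.00547). HOXD1 was listed at 0, 0.87 and 0 TPM, below 10.8, 3.85 and 2.50 TPM (log2 fold change -2.92, SE 0.83, limma adjusted p = 0.0125). These are genes at low TPM, where the log2 scale used understates a change and where the unknown depth limits the precision.

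The genes called lower on the deposited TPM only included HOXA3, HOXB3, HOXB4, HOXC4, HOXC6, HOXB9, HOXC9, HOXA10, HOXA11, HOXC11, HOXD11 and HOXC12. HOXA3, which acts in the neck and pharynx in mouse, was listed at 16.8, 8.50 and 8.82 TPM in the uninjured control libraries and at 2.73, 4.15 and 2.46 TPM in uninjured inhibitor (log2 fold change -1.67, SE 0.37, limma adjusted p = 0.0041). HOXA10, a gene of the lumbar cord and hind limb, was listed at 23.5, 6.47 and 11.1 TPM against 2.37, 4.14 and 4.03 TPM, and HOXC6, a gene of the brachial cord in mouse, at 9.57, 6.29 and 6.43 TPM against 3.13, 2.91 and 2.93 TPM. Neither range overlapped. HOXC12 was listed at 320.5, 115 and 81.2 TPM against 48.7, 68.8 and 54.9 TPM, HOXC11 at 42.2, 16.1 and 20.0 TPM against 10.4, 11.2 and 13 TPM, and HOXD11 at 30.9, 8.99 and 5.35 TPM against 3.04, 4.59 and 2.21 TPM. HOXA11 had a control range of 11.7 to 59.5 TPM, and its inhibitor values of 7.05, 16.2 and 9.32 TPM overlapped it. After median-of-ratios scaling none of these was past both thresholds.

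The HOX13 genes did not pass the test with the inhibitor. HOXC13 was listed at 55.2, 64.2 and 61.1 TPM, below all uninjured control values, with a log2 fold change of -0.96 (SE 0.27, limma adjusted p = 0.012), just short of the fold threshold, and of -0.01 after scaling. HOXB13 was listed at 17.6, 21.9 and 30.6 TPM, within the control range of 13.6 to 34.7 TPM. HOXA13 lay at 12.4, 13.8 and 6.80 TPM and HOXD13 at 1.37, 2.78 and 2.50 TPM.

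The number of HOX genes called lower depended on single libraries of both uninjured groups. Without uninjured control library 1 it was 7 (median log2 fold change -0.76), and without libraries 1 and S2 together it was 1 (HOXA7). Without uninjured inhibitor library 5 it was 8, without library 7 it was 10, and without library 6 it was 19. The shares of all genes called in these fits are not given here, so the counts have no background beside them. The summed spinal cord markers were 340 to 705 TPM in uninjured inhibitor against 602 to 2880 TPM in uninjured control, the neuronal markers 2497 to 3555 TPM against 2573 to 14595 TPM, and the muscle markers 4097 to 9024 TPM against 11423 to 46682 TPM. Epidermis markers were 540 to 660 TPM against 1527 to 2451 TPM, without overlap. The sums of leukocytes (841 to 1033 against 363 to 1064 TPM) and of connective tissue and cartilage (1774 to 3496 against 2097 to 2913 TPM) overlapped. So did the gene T (1.76 to 2.58 against 0.29 to 2.39 TPM). Their part in the HOX differences was not tested.

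**Figure D3:**
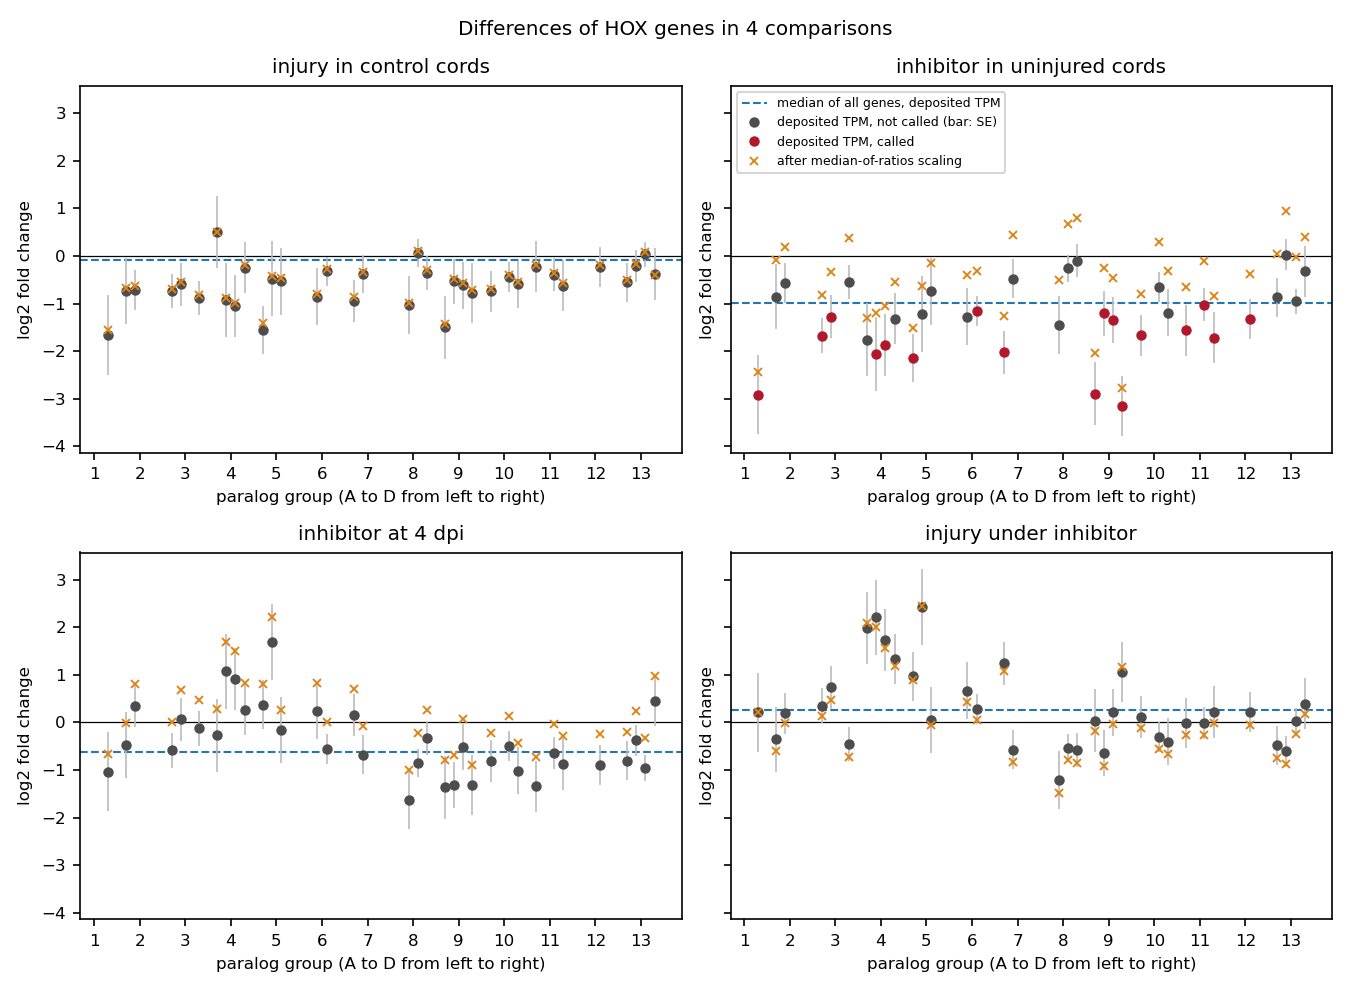
Log2 fold change of the HOX genes described here in 4 comparisons, ordered by paralog group and cluster, on the deposited TPM (dots with SE bars, red where called) and after median-of-ratios scaling (crosses), with the median of all genes as a dashed line. The called genes all lie in the comparison of uninjured cords, where the median of all genes is -1.0. The point of HOXD9 there depends on the pseudocount, since it was listed at 0 in all 3 uninjured inhibitor libraries.

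At 4 dpi the inhibitor libraries were compared with the 4 dpi control libraries, and no HOX gene passed the test in either direction (0.21% of all genes were called higher and 1.67% lower). At an unadjusted p under 0.05, 5 HOX genes were lower and none was higher, beside 28.4% and 4.05% of all genes. With libraries scaled by median ratio, none was lower and 4 had a higher level, beside 5.19% and 12.4%. The median log2 fold change was -0.54 over HOX genes and -0.62 over all genes, and 0.01 and -0.06 after median-of-ratios scaling. Fitted values were negative for 82.1% of all genes and positive for 17.8% (54.3% and 45.6% after scaling). The medians varied with position in the clusters. Those of paralog groups 9 to 13 had a median of -0.87, with 14 of 15 negative (-0.25 and 11 of 15 after scaling), whereas those of groups 4 and 5 had a median of 0.38, with 5 of 7 positive (0.83 and 7 of 7 after scaling). The band of groups 4 and 5 was chosen after the values were seen, so its medians are a description. Groups 4 to 8 together had a median of 0.002, with 7 of 14 positive (0.50 and 11 of 14 after scaling).

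Lower fitted values were not confined to the high and middle paralog groups. Those of paralog groups 1 to 3 had a median log2 fold change of -0.47, with 5 of 7 negative (0.0009 and 3 of 7 after scaling). The median of all genes was lower, at -0.62, and 82.1% of all genes were negative. The 4 dpi inhibitor and 4 dpi control libraries did not overlap for 13 HOX genes that were lower with the inhibitor, 36.1% of the 36 against 46.8% of all genes. They were HOXC6, HOXB7, HOXB8, HOXC8, HOXB9, HOXA10, HOXD10, HOXA11, HOXC11, HOXD11, HOXC12, HOXA13 and HOXC13. HOXB8, a gene of the trunk cord that in mouse also acts in sensory circuits, was listed at 119, 23.2 and 56.9 TPM in 4 dpi control libraries 1, 5 and 6 and at 13.9, 20.8 and 17.3 TPM in 4 dpi inhibitor libraries 5, 6 and 7. Its log2 fold change was -1.63 (SE 0.61, limma adjusted p = 0.103), and -1.0 after scaling. HOXB9 was listed at 188, 64.9 and 128 TPM against 50.7, 44.9 and 44.1 TPM (log2 fold change -1.31, SE 0.47, limma adjusted p = 0.095). For both genes all inhibitor libraries were low and close together while the control libraries spread widely.

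HOXC13 was listed at 140.4, 90.1 and 136 TPM in 4 dpi control and at 70.1, 53.1 and 62.5 TPM in 4 dpi inhibitor (log2 fold change -0.96, SE 0.27, limma adjusted p = 0.0608), which was the smallest p of the HOX genes in this comparison, and -0.32 after scaling. HOXC8 was listed at 45.9, 42.6 and 56.2 TPM against 23.8, 27 and 28.1 TPM (log2 fold change -0.86, SE 0.29, limma adjusted p = 0.082). HOXC12 at 182, 85.4 and 119 TPM stood against 75.1, 59.4 and 65.3 TPM. All 3 genes were lower in each inhibitor library than in each control library. Of the other HOX13 genes, HOXA13 was listed at 9.81, 3.43 and 11.6 TPM in 4 dpi inhibitor, below the control range of 11.8 to 14.9 TPM, HOXB13 at 18.0, 13.3 and 13.5 TPM, which overlapped 17.2 to 22.6 TPM, and HOXD13 at 3.63, 2.76 and 2.63 TPM against 2.65, 1.2 and 2.61 TPM. Leaving out 4 dpi control library 5 made 3 genes pass the test as lower (HOXB8, HOXB9 and HOXC13). The share of all genes called in that fit is not given here.

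**Figure D4:**
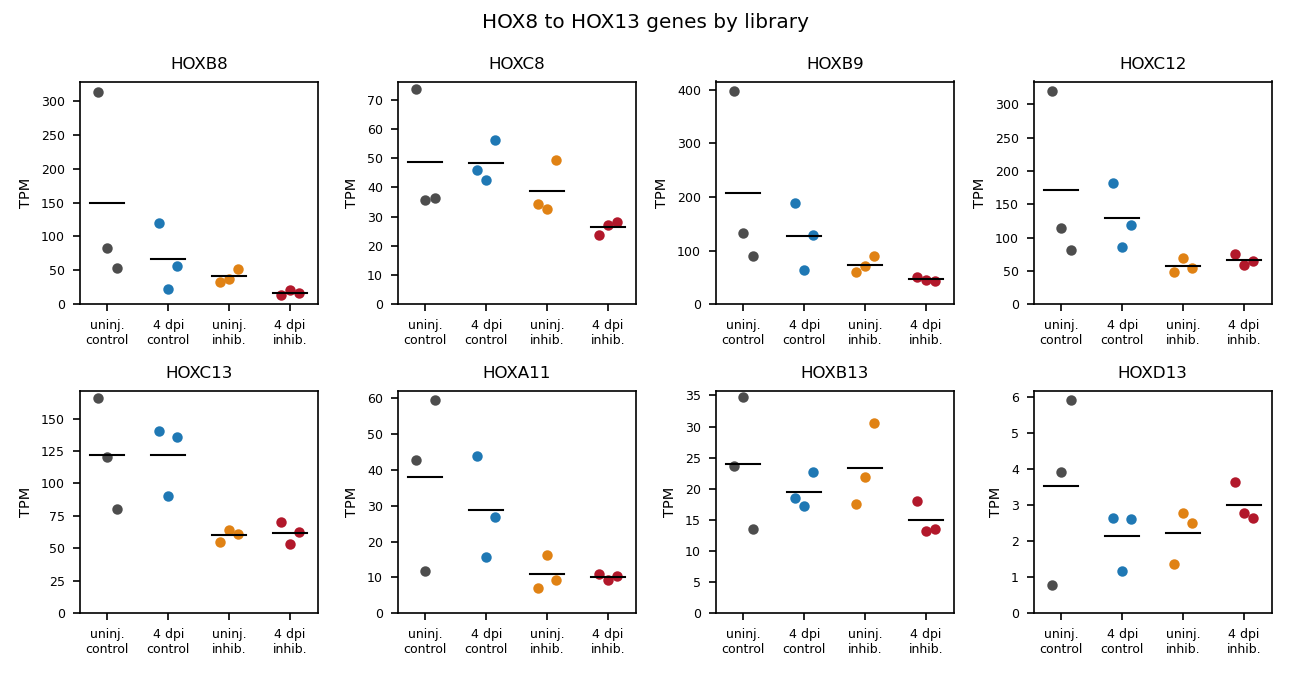
TPM of 8 genes of paralog groups 8 to 13 in each library (dots) with the group mean (line), 1 panel per gene with its own linear axis from 0. HOXB8, HOXC8, HOXB9, HOXC12, HOXC13 and HOXA11 are lower in each 4 dpi inhibitor library than in each 4 dpi control library, while HOXB13 and HOXD13 overlap.

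HOXB5 was the only HOX gene whose 4 dpi inhibitor libraries all lay above the 4 dpi control libraries, which held for 2.78% of the 36 and 6.62% of all genes. It was listed at 10.7, 3.67 and 6.15 TPM with the inhibitor and at 3.60, 1.2 and 0.84 TPM in control (log2 fold change 1.69, SE 0.80, limma adjusted p = 0.161). The gap between the groups, 3.67 against 3.60 TPM, was small. HOXB4, which like the other HOX4 genes is expressed from the hindbrain border backwards, was listed at 37.2, 13.6 and 19.0 TPM against 20.1, 7.57 and 6.19 TPM, and HOXC4 at 13.4, 5.52 and 7.98 TPM against 8.21, 3.22 and 2.78 TPM. These ranges overlapped, and 4 dpi inhibitor library 5 and 4 dpi control library 1 were the highest of their groups for each of these 3 genes. In uninjured control libraries 1, 5 and S2, HOXB4 was listed at 48.2, 12.8 and 11.4 TPM and HOXB5 at 7.50, 1.56 and 1.01 TPM. Both of these ranges overlapped those of 4 dpi inhibitor.

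The fourth comparison asked how injury changed the HOX genes under the inhibitor (4 dpi inhibitor against uninjured inhibitor). Again no HOX gene passed the test, where 0.406% of all genes were called higher and 0.0271% lower. At an unadjusted p under 0.05, 6 HOX genes were higher (HOXB5, HOXB4, HOXA7, HOXC4, HOXA4 and HOXD4) and none was lower, beside 14.6% and 3.07% of all genes. With libraries scaled by median ratio, 8 were lower and 6 higher, beside 9.41% and 11.5%. Fitted values were positive for 67.9% of all genes (51.65% after scaling). The median log2 fold change was 0.15 over HOX genes and 0.26 over all genes, but 1.74 over the 7 genes of paralog groups 4 and 5, all positive, and -0.53 over the 7 tested genes of groups 6 to 8. After median-of-ratios scaling these 2 medians were 1.57, with 6 of 7 positive, and -0.80. The band of groups 4 and 5 was chosen after the values were seen. Groups 4 to 8 together had a median of 0.82, with 10 of 14 positive (0.66 and 9 of 14 after scaling). The HOX median was -0.05 after scaling, -0.03 without uninjured inhibitor library 5, 0.38 without uninjured inhibitor library 6 and 0.05 without 4 dpi inhibitor library 5. The tissue marker sums did not overlap between these groups for leukocytes (2175 to 2575 TPM at 4 dpi against 841 to 1033 TPM), spinal cord (162 to 209 against 340 to 705 TPM) and neurons (1384 to 1657 against 2497 to 3555 TPM). Those of epidermis (808 to 1521 against 540 to 660 TPM), connective tissue and cartilage (4078 to 4141 against 1774 to 3496 TPM) and the gene T (4.86 to 6.69 against 1.76 to 2.58 TPM) did not overlap either. The muscle sums did (6376 to 7258 against 4097 to 9024 TPM). The part of all these in the HOX differences was not tested.

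Uninjured inhibitor library 6 stood apart from the other libraries of its group in the HOX4 genes. HOXB4 was listed at 2.39, 17.5 and 1.53 TPM in uninjured inhibitor libraries 5, 6 and 7 and at 37.2, 13.6 and 19.0 TPM in 4 dpi inhibitor libraries 5, 6 and 7 (log2 fold change 2.21, SE 0.78, limma adjusted p = 0.189). HOXC4 was listed at 0.88, 7.00 and 1.36 TPM against 13.4, 5.52 and 7.98 TPM, and HOXD4 at 0.62, 3.72 and 1.28 TPM against 6.37, 3.62 and 4.30 TPM. HOXA4 was listed at 0, 2.94 and 0 TPM against 3.90, 2.50 and 3.57 TPM. In all 4 HOX4 genes libraries 5 and 7 lay below the 4 dpi inhibitor libraries and library 6 lay among them. HOXB5, at 0.49, 3.52 and 0 TPM against 10.7, 3.67 and 6.15 TPM, was the only gene of paralog groups 4 and 5 whose groups did not overlap (log2 fold change 2.43, SE 0.80, limma adjusted p = 0.161). Without library 6, HOXA4, HOXB4, HOXB5 and HOXC4 passed the test as higher, with log2 fold changes of 2.48 to 3.26. The share of all genes called in that fit is not given here, so this count has no background beside it.

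Library 6 was at least 2-fold above both other uninjured inhibitor libraries for 10 HOX genes (HOXD1, HOXB3, HOXA4, HOXB4, HOXC4, HOXD4, HOXB5, HOXC5, HOXB6 and HOXA9), 27.8% of the 36 against 14.3% of all genes tested. Of these 10, 6 are the HOX4 and HOX5 genes other than HOXA5. HOXB3, which overlaps HOXB4 to HOXB6 in the annotation, followed them, with 15.1, 32.0 and 9.01 TPM in libraries 5, 6 and 7. HOXA5 did not, with 0.20, 0.85 and 0.54 TPM in uninjured inhibitor and 0.66, 1.69 and 2.41 TPM in 4 dpi inhibitor, and HOXC5 overlapped between the groups, at 0, 2.55 and 1.09 TPM and 0.88, 1.69 and 0.40 TPM. The sum of spinal cord markers was 340 TPM in library 6, the lowest of its group, and the sum of muscle markers, 9024 TPM, the highest. The part of tissue content in the difference between these libraries was not tested.

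**Figure D5:**
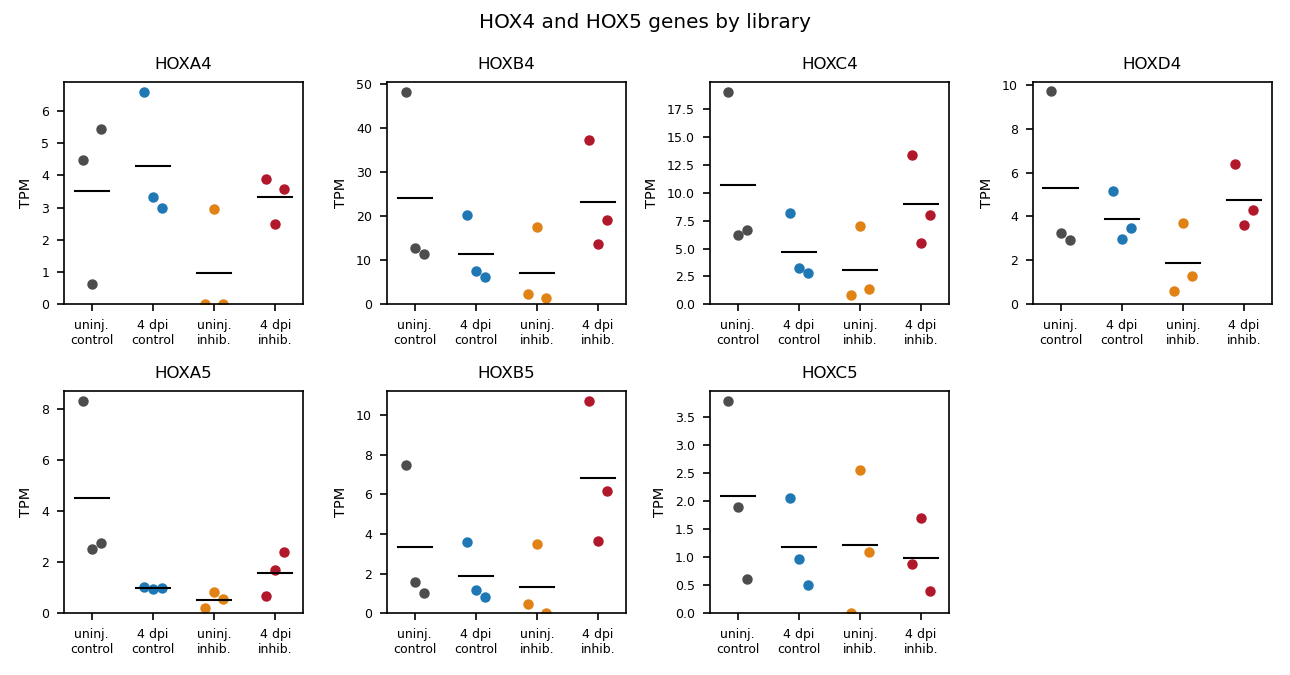
TPM of the 7 HOX4 and HOX5 genes in each library (dots) with the group mean (line), 1 panel per gene with its own linear axis from 0. For the 4 HOX4 genes and HOXB5, uninjured inhibitor library 6 stands well above the other 2 libraries of its group, and the 4 dpi inhibitor libraries lie within the range of the uninjured control libraries except for 1 library above it in HOXB5 and 1 below it in HOXC4.

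With injury under the inhibitor the groups did not overlap for 2 HOX genes that were higher at 4 dpi (HOXB5 and HOXA7, 5.56% of the 36 against 28.7% of all genes) and for 6 that were lower (HOXB7, HOXB8, HOXC8, HOXD8, HOXB9 and HOXD10, 16.7% against 9.1% of all genes). HOXB8 was listed at 33.4, 38.0 and 51.6 TPM in uninjured inhibitor and at 13.9, 20.8 and 17.3 TPM in 4 dpi inhibitor (log2 fold change -1.21, SE 0.61, limma adjusted p = 0.325). HOXB9 was listed at 60.8, 70.9 and 89.3 TPM against 50.7, 44.9 and 44.1 TPM. Both neighbours in cluster B were thus lowest in 4 dpi inhibitor, whereas HOXC12, at 48.7, 68.8 and 54.9 TPM against 75.1, 59.4 and 65.3 TPM, and HOXC13, at 55.2, 64.2 and 61.1 TPM against 70.1, 53.1 and 62.5 TPM, overlapped.

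Whether the change with the inhibitor differed between injured and uninjured cords was tested as an interaction. No HOX gene passed at an adjusted p under 0.05, which 0.0271% of all genes did in either direction, and 5 had an unadjusted p under 0.05 (HOXA5, HOXA7, HOXC4, HOXB4 and HOXB5, all positive), beside 5.13% positive and 1.57% negative over all genes. The fitted interaction was 3.14 (SE 1.11) for HOXB4, 2.90 (SE 1.13) for HOXB5, 2.79 (SE 0.91) for HOXC4 and 2.53 (SE 0.72) for HOXA5 on the log2 scale, each with a limma adjusted p of 0.658. The median over the 7 genes of paralog groups 4 and 5 was 2.53, against 0.81 over all HOX genes and 0.31 over all genes, and 2.31, 0.55 and 0.04 after scaling. The median over all HOX genes was 0.28 without uninjured control library 1. The comparisons share their control and inhibitor libraries, so these values are not independent of the comparisons given before.

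The 4 dpi inhibitor libraries also differed from the 4 dpi control libraries in some of their tissue markers. The sum of 12 spinal cord genes was 162 to 209 TPM against 396 to 1109 TPM, that of 12 neuronal genes 1384 to 1657 TPM against 2824 to 6021 TPM, and that of 14 muscle genes 6376 to 7258 TPM against 10547 to 20464 TPM. The sum of 12 epidermis genes was 808 to 1521 TPM against 1863 to 2431 TPM, and T, a gene of notochord and of early mesoderm, lay at 4.86 to 6.69 TPM against 0.27 to 1.58 TPM. None of these ranges overlapped. The sum of 12 leukocyte genes (2175 to 2575 TPM against 1667 to 2214 TPM) and that of 12 connective tissue and cartilage genes (4078 to 4141 TPM against 2769 to 4971 TPM) did overlap. The part of these tissues in the HOX shares was not tested.

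Genes that act with the HOX proteins or on the HOX clusters were read from a list of 33 genes, of which 30 were in the table and 29 were tested. In 4 of the 5 tests (injury in control cords, inhibitor at 4 dpi, injury under the inhibitor and the interaction) none of them passed in limma. At an unadjusted p under 0.05 3 were higher and 2 lower with injury in control cords, beside 7.24% and 3.27% of all genes. With the inhibitor at 4 dpi 1 was higher and 5 lower, beside 4.05% and 28.4%. With injury under the inhibitor 6 were higher and none lower, beside 14.6% and 3.07%. For the interaction 3 were positive and none negative, beside 5.13% and 1.57%. With the inhibitor in uninjured cords 22 were lower and none higher, beside 53.7% and 8.03%. In uninjured cords with the inhibitor, 5 of the 7 tested TALE homeodomain cofactors, which bind DNA together with HOX proteins, were lower (PBX2, PBX3, MEIS1, MEIS2 and PKNOX1), beside 42% of all genes. After median-of-ratios scaling 2 were lower (PBX2 and PBX3), beside 13.2% of all genes. MEIS1 was listed at 61.8, 17.2 and 24.9 TPM in uninjured control libraries 1, 5 and S2 against 8.01, 8.04 and 9.40 TPM in uninjured inhibitor libraries 5, 6 and 7 (log2 fold change -1.76, limma adjusted p = 0.00604), and MEIS2 at 20.6, 5.69 and 8.51 TPM against 2.57, 3.39 and 3.16 TPM. The ranges of MEIS1 and MEIS2 did not overlap. PBX2 was listed at 9.25, 3.12 and 2.28 TPM against 0.40, 1.0 and 0 TPM, and PBX3 at 5.24, 1.25 and 0.32 TPM against 0, 0.056 and 0 TPM, both low throughout the inhibitor libraries. CDX1, PBX4 and MEIS3 were not analysed here.

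Of the Polycomb and Trithorax genes, which keep HOX clusters silent or active, 12 of 17 were lower with the inhibitor in uninjured cords and none was higher, beside 42% and 3.32% of all genes. After scaling 5 were lower (EZH1, CBX7, KMT2A and KMT2D among them) and 2 were higher (EED and WDR5), beside 13.2% and 15.1%. KMT2A, the Trithorax methyltransferase that maintains HOX expression, was listed at 10.9, 4.61 and 5.92 TPM in the uninjured control libraries and at 0.46, 1.58 and 0.14 TPM in uninjured inhibitor (log2 fold change -2.73, limma adjusted p = 0.00215, and -2.07 after scaling). Every inhibitor library was below every control library. RNF2, part of a Polycomb complex that ubiquitinates histones, had a log2 fold change of -1.69 (limma adjusted p = 0.00415), and after scaling it was no longer past the fold threshold. EVX1, which RefSeq places next to HOXA13 as EVX2 lies next to HOXD13, was listed at 10.8, 3.38 and 1.46 TPM against 1.43, 1.0 and 0.65 TPM (log2 fold change -1.56, limma adjusted p = 0.0468), and it did not pass after scaling.

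CDX genes drive the expression of the posterior HOX genes in the embryo. CDX4 was listed at 5.39, 2.43 and 1.18 TPM in uninjured control, 6.92, 4.94 and 9.34 TPM in 4 dpi control, 2.08, 2.13 and 1.96 TPM in uninjured inhibitor and 5.92, 5.38 and 4.73 TPM in 4 dpi inhibitor. Its log2 fold change with injury was 1.26 in control cords (limma adjusted p = 0.279) and 1.19 under the inhibitor (limma adjusted p = 0.191), where the ranges did not overlap. CDX2 was listed at 6.55 TPM in 4 dpi control library 1 and at 0 in the other 11, the same library in which OTX2 was found. GDF11, a signalling protein that starts the switch from trunk to tail HOX genes in mouse, was listed at 12, 3.56 and 1.36 TPM in the uninjured control libraries and at 0.72, 0.60 and 0.66 TPM in uninjured inhibitor (log2 fold change -1.97, limma adjusted p = 0.0285), and did not pass after scaling.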

How the data were processed

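Total RNA of 12 pools of axolotl spinal cord was sequenced, and the authors deposited TPM per gene, with human identifiers, for each library. Their notes list DESeq2 1.16.1, RSEM 1.1.6 and Bowtie 0.12.1 with no role, and the transcript models are not stated. Depth is unknown, so no count model was fitted. Genes with at least 0.5 TPM in 3 libraries (14764 of 15091) were fitted as log2(TPM + 0.5) in limma 3.58.1 (R 4.3.3) on all 12 libraries at once. Variances were moderated along a trend, and p-values were adjusted by Benjamini-Hochberg over all genes tested in a comparison. Calls needed an adjusted p below 0.05 with a log2 fold change beyond 1 in size, and the interaction was called by adjusted p alone. For 25 symbols that had become dates the identifier was used. Values by library are given, for some or all of the groups, for the called genes with the smallest adjusted p, up to 12, the highest gene of each paralog group and all of groups 12 and 13. The other genes given per library were named after their values were seen. A few genes are not reported here, although counts, medians and shares include them. Members, lists and tests were chosen with earlier results of these data known. Alternatives were other pseudocounts, filters and scalings, fits without the other groups, without the trend, with a replicate block, and with single libraries left out. Figures were drawn in Python 3.11.15 with matplotlib 3.10.9.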

Additional observations from a re-analysis of the deposited data

Results flagged for a closer look

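HOXA7 was the 1 HOX gene whose injured libraries all lay below the uninjured ones under 1 treatment and all above them under the other. All 4 dpi control libraries (2.84, 3.13 and 3.19 TPM) lay below all uninjured control libraries (10.0, 6.47 and 3.88 TPM), and all 4 dpi inhibitor libraries (4.86, 4.34 and 1.90 TPM) lay above all uninjured inhibitor libraries (1.89, 1.34 and 0.57 TPM), the last by 1.90 against 1.89 TPM. The difference between the 2 changes was 2.19 on the log2 scale and did not pass its test (limma interaction, adjusted p = 0.658). Over all genes, 1.98% were lower without overlap with injury in control cords and 28.7% were higher without overlap under the inhibitor. The share of all genes with both is not given here, so how unusual the pattern of HOXA7 is cannot be read from these values.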

How the results depend on the processing

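The 18 HOX genes called lower with the inhibitor in uninjured cords gave 306 values over 17 alternatives, of which 186 stayed past the test in the same direction, 117 kept the direction but did not pass, and 3 changed sign. HOXD9 passed in 16 of the 17, HOXA7 and HOXA9 in 15. The count called lower was 5 under median-of-ratios scaling (median log2 fold change -0.40), 2 under quantile normalization (median -0.35, with 1 gene higher, HOXD8, and HOXC6 at 0.085), and 8 with only the libraries compared. Leaving out 1 library at a time gave 7 to 21. The alternatives chosen after seeing the data gave 1 without uninjured control libraries 1 and S2, and 1 (HOXD9) with 1 higher (HOXD8) under median-of-ratios scaling without uninjured control library 1, where the median was -0.083, HOXB9 0.17 and HOXC11 0.11. For the inhibitor at 4 dpi, quantile normalization gave a median of 0.13, a fit of only the libraries compared called 1 gene lower (HOXA11), and leaving out 1 library gave 0 to 3. For injury under the inhibitor, the fit of only the libraries compared called 1 lower (HOXB8), and leaving out 1 library gave 0 to 4 higher. With weights of log2(TPM + 1) the mean paralog number was 7.90 in uninjured control, 8.18 in 4 dpi control, 8.37 in uninjured inhibitor and 7.94 in 4 dpi inhibitor. Equal replicate numbers were not taken to pair the libraries in the main fit. The correlation of the deviations of libraries with equal numbers was 0.51 and 0.27 between control groups, where the other pairs gave -0.42 to 0.23. Between inhibitor groups it was -0.24 to -0.02, where the other pairs gave -0.10 to 0.25. These values do not settle whether the numbers pair the libraries. With a replicate block, 3 genes were lower with injury in control cords (HOXA5, HOXA7 and HOXB8), 12 lower with the inhibitor in uninjured cords, 1 lower with it at 4 dpi (HOXB8), and 2 higher (HOXA7 and HOXB5) and 1 lower (HOXB8) with injury under the inhibitor. The cause of these changes was not tested. Except for median-of-ratios scaling in uninjured cords, the share of all genes called under these alternatives is not given here. Unknown depth limits all genes at a few TPM.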
